A study of Rattus norvegicus with 6 samples.

Results

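The genes that fold proteins in the endoplasmic reticulum (ER) and that answer folding stress were examined in sensory neurons of the dorsal root ganglia (DRGs) at L1-L2 after removal of the fat around the kidney, perirenal adipose tissue ablation (PRATA). The set was given as a list of 36 gene symbols, and all 36 were found by gene name among the 25689 genes of the count table. It held 18 chaperones and folding enzymes, 3 genes of stress sensing (Xbp1, Ern1 and Atf6), 7 genes of the ATF4 and CHOP branch, and 8 genes of ER-associated degradation (ERAD) and protein translocation. RNA was sequenced in 3 samples of spontaneously hypertensive rats (SHRs) collected 4 weeks after PRATA and in 3 samples of sham-operated SHRs. The labels give both groups as wild type with an age of 6 to 8 weeks, and the methods of the study give an older age at purchase. In all 6 samples the ganglia had been dissociated by collagenase and by trypsin, and the cells had been kept in culture for hours so that the more slowly adhering neurons could be flushed off from the glia. No source used here says how many animals a sample held or that the samples came from separate animals, so the p-values measure the spread between these samples only.

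Proteins that enter the secretory pathway are threaded into the ER and folded there by chaperones such as BiP (gene Hspa5), by lectins such as calreticulin and calnexin, and by disulfide isomerases. When unfolded proteins build up, the sensors IRE1, ATF6 and PERK start the unfolded protein response. IRE1 splices the Xbp1 mRNA, and XBP1 and ATF6 act on promoters of chaperone and ERAD genes, whereas PERK leads through translation control to ATF4 and its target CHOP (gene Ddit3). Other kinases, which sense amino acid shortage, haem or viral RNA, also lead to ATF4. Sensory neurons make large amounts of secreted peptides, channels and receptors, and their ER carries that load. Splicing of Xbp1 cannot be read from counts per gene.

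The best known binding motif of ATF6 and XBP1 in promoters is the ER stress response element (ERSE), CCAAT and CCACG with 9 bases between them. It was searched on both strands, together with ERSE-II (ATTGG and CCACG with 1 base between them), the XBP1 motif UPRE (TGACGTGG) and the core of the amino acid response element bound by ATF4 (TGATG and AA with 1 base between them, here AARE core). The search used RefSeq promoter windows of build GRCr8, from 250 bases before to 50 bases after each gene's start. Of the 36 genes, 29 had a single window, 6 had none (Pdia3, Pdia6, Manf, Ern1, Atf6 and Derl1), and Hyou1 had 2 and was left out of the counts. The windows below are part of those that hold the motifs in which the chaperone genes and the ATF4 and CHOP branch differ. Those of Xbp1, Derl3 and Herpud1 belong to the other classes. The ERSE windows of Calr and Ero1b and the other ERSE match of Hsp90b1 are not shown. Capitals mark the whole motif with its spacer, and each window is written 5′ to 3′ on the strand on which the motif reads forward.
Hspa5 ERSE, chr3:38452961-38453003, plus strand: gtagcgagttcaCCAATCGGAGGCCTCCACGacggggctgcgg
Hsp90b1 ERSE, chr7:23012439-23012481, minus strand: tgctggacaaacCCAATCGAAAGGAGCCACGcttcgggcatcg
Dnajc3 ERSE, chr15:102432522-102432564, plus strand: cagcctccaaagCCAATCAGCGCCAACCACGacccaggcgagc
Creld2 ERSE, chr7:121789227-121789269, minus strand: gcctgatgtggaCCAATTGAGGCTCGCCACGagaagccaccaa
Canx ERSE, chr10:35158057-35158099, minus strand: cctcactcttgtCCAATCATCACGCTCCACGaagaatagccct
Xbp1 ERSE, chr14:84604546-84604588, plus strand: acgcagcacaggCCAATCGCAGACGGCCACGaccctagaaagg
Derl3 ERSE, chr20:12766589-12766631, plus strand: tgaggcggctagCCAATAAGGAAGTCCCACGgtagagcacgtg
Dnajb11 ERSE-II, chr11:91672788-91672822, minus strand: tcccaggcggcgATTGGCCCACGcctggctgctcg
Herpud1 ERSE-II, chr19:10614809-10614843, minus strand: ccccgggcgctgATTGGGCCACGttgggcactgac
Herpud1 AARE core, chr19:10614872-10614903, plus strand: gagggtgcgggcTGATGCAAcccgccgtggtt
Trib3 AARE core, chr3:161275535-161275566, plus strand: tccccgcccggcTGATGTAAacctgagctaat
Chac1 AARE core, chr3:126795952-126795983, minus strand: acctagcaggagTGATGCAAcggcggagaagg

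ERSE was found in 9 of the 29 promoters (Hspa5, Hsp90b1, Dnajc3, Calr, Canx, Creld2, Ero1b, Xbp1 and Derl3), against 22 of all 33469 windows in the table (0.0657%). Hsp90b1, which codes for the BiP partner GRP94, held 2 matches. ERSE-II stood in Dnajb11 and Herpud1, against 0.0508% of all windows, and in 1 of the 2 windows of Hyou1. Of the 9 genes with ERSE, 7 were chaperones or folding enzymes, and none of the 7 genes of the ATF4 and CHOP branch held ERSE or ERSE-II. The AARE core stood in Trib3, Chac1 and Herpud1, against 3.98% of all windows, and UPRE stood in Dnajc10, against 0.595%, and in 1 of the 2 windows of Hyou1. Of the 11682 windows of tested genes alone, 0.137% held ERSE, 0.077% ERSE-II, 2.06% the AARE core and 0.865% UPRE. A match describes letters and is not a measured binding site, and a window without one says nothing about the factor. The set was listed as ER folding and stress genes, of which ATF6 and XBP1 are known regulators. These shares therefore describe the list and are no result of the 6 samples.

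**Figure D1:**
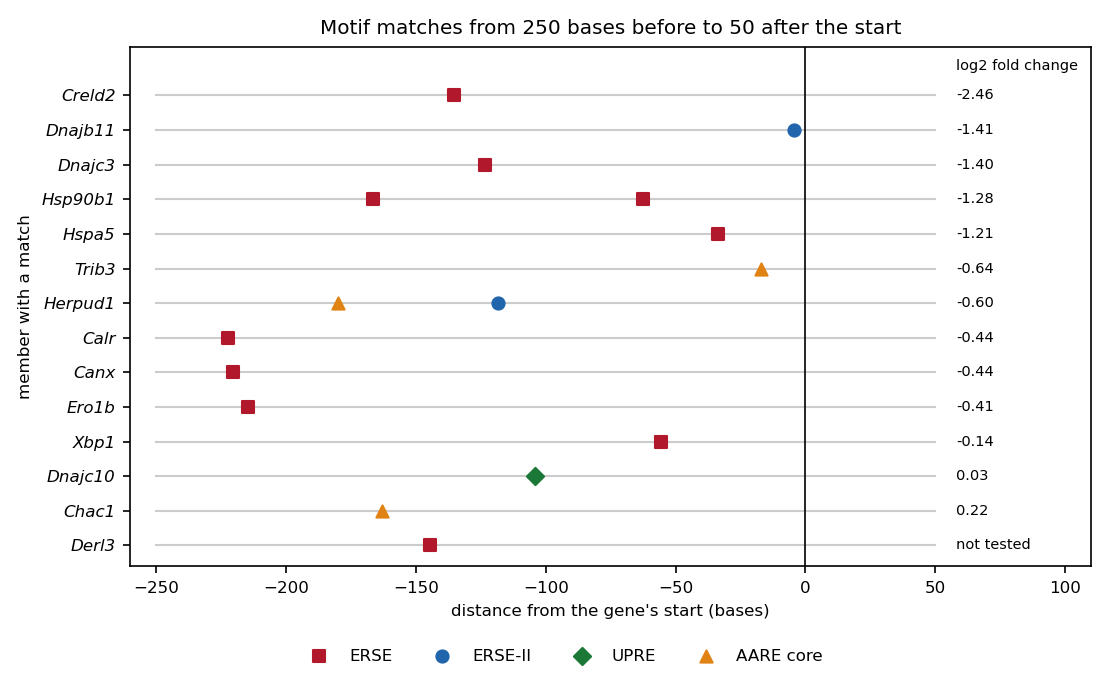
Position of each motif match in the promoter windows of the genes that hold one, in bases from the gene's start, ordered by the log2 fold change (PRATA against sham) at the right. ERSE matches lie before the start in 7 chaperone and folding genes with log2 fold changes from -2.46 to -0.41 and in Xbp1 and Derl3, and the AARE core lies in Trib3, Chac1 and Herpud1.

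Libraries held from 5892967 counts (sham replicate 2) to 15226952 counts (sham replicate 1). Levels are given as CPM, the count of a gene over the library's total on the usual scale, with the totals adjusted by TMM factors, and 3 counts correspond to 0.207 to 0.468 CPM. This floor of 3 counts covers counting error only. Sham replicate 2 had the fewest counts and yet the most genes with a count, 23168 against 18956 to 20672 in the other samples. In PRATA replicate 3 and sham replicate 1, 92.0% and 94.1% of the reads of 7SL RNA fell on 1 gene copy, against 45.3% to 47.4% in the other 4 samples. All 16 markers of sensory neurons passed the filter. The summed level of these 16 sensory neuron markers, such as Prph and Tubb3, was 13756 to 20947 CPM after PRATA, and 9545, 14463 and 11926 CPM in sham replicates 1, 2 and 3. The 10 satellite glia markers, such as Apoe and Fabp7, summed to 3239 to 6113 CPM after PRATA and to 7390, 4283 and 8425 CPM in sham replicates 1, 2 and 3. All 16 neuron markers had a log2 fold change above 0. Of these, 5 were higher at an unadjusted p under 0.05 by edgeR, against 8.19% of all genes. Of 10 satellite glia markers, 9 had a fold change below 0, against 48% of all genes, and 1 was lower at that p, against 10.1%. Sham replicates 1 and 3 thus had the lowest neuron sums and the highest satellite glia sums. Most of each satellite glia sum was Apoe, at 6283 and 7473 CPM in sham replicates 1 and 3. Sham replicate 3 was the highest sample in 5 of the 10 satellite glia markers. It was below PRATA replicate 2 in Kcnj10, Glul, Cdh19, S100b and Entpd2. Sham replicates 1 and 3 were also the samples in which most genes described below stood highest. The part of the cell mixture in the result was not tested. In these bulk samples fewer cells of a type and less RNA per cell cannot be told apart.

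The tested genes were mostly lower after PRATA, with a median log2 fold change of -0.64 over 35 genes, 32 below 0 (48% of all genes tested were) and 3 above, while the median of all 14919 genes tested was 0.025. At an unadjusted p under 0.05 (edgeR's quasi-likelihood test), 11 of the 35 genes were lower, or 9 of 18 chaperones and folding enzymes, 2 of 7 ERAD and translocation genes, 0 of 3 sensing genes and 0 of 7 genes of the ATF4 and CHOP branch; of all genes tested, 10.1% were lower at that p. None was higher at that p, against 8.19% of all genes. With library size alone as the scaling, 15 of the 35 were lower and 0 higher at that p, against 11.2% and 5.6% of all genes. Hsp90b1, Dnajb11, Dnajc3, Pdia4, Creld2 and Manf also had a log2 fold change under -1, as 3.23% of all genes did, and none had one over 1 at that p (1.17% of all genes). No gene of the set, and 0 of the 14919 genes, reached a Benjamini-Hochberg adjusted p under 0.05 by edgeR, beside 2734 genes at an unadjusted p under 0.05; DESeq2 placed 662 genes under 0.05, Dnajb11 and Dnajc3 among them. The smallest adjusted p of any gene by edgeR was 0.156.

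The sham samples did not share the difference evenly. Sham replicate 3 was the highest of the 6 samples in 27 of the 35 genes, against 17.9% of all genes, and sham replicate 1 was the highest in 6 (Xbp1, Ern1, Atf4, Ppp1r15a, Sesn2 and Derl1), against 20.4%. Sham replicate 2 was below the highest PRATA sample in 28 of 35 genes, not far above the 72.3% of all genes. It was the lowest of all samples in 16 of 35, against 15.8%. Sham replicates 1 and 3 were both above every PRATA sample in 25 of 35 genes, including 17 of 18 chaperones and folding enzymes, against 22.8% of all genes. The groups did not overlap, with PRATA below sham, in 5 of 35 genes (Dnajb11, Canx, Pdia3, Creld2 and Ero1b), against 11.2% of all genes, and in 0 of 35 was PRATA above sham without overlap, against 11.6%.

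**Figure D2:**
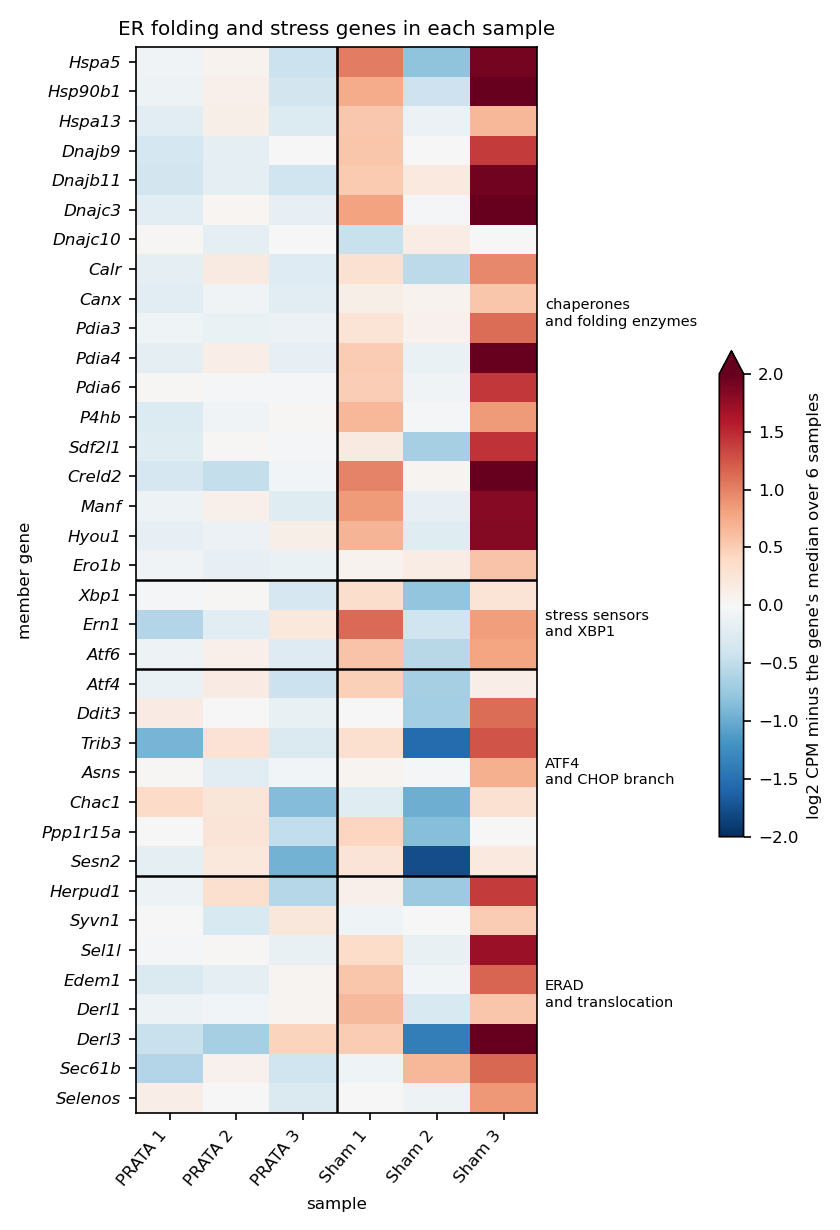
Log2 CPM (prior count 1) of each of the 36 genes in each sample minus the gene's own median over the 6 samples, with classes separated by lines and colours ending at 2. Red in sham replicate 3 runs through the ERAD rows and all chaperone rows but Dnajc10, sham replicate 1 is paler red in most rows, and sham replicate 2 is blue in 6 of the 7 rows of the ATF4 and CHOP branch.

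Hspa5, which codes for BiP, the main ER chaperone of the HSP70 family and the protein that holds the sensors inactive, stood at 1644, 1805 and 1282 CPM in PRATA replicates 1, 2 and 3 and at 3496, 989.6 and 6482 CPM in sham replicates 1, 2 and 3. The groups overlapped, since sham replicate 2 was the lowest sample and sham replicates 1 and 3 were the highest. Its log2 fold change was -1.21 ± 0.570 (SE), with an unadjusted p of 0.0653 and an adjusted p of 0.302 by edgeR. Without sham replicate 3 it was -0.50 ± 0.514, and without sham replicate 2 it was -1.66 ± 0.308 with an edgeR adjusted p of 0.0394. Hsp90b1 had the same order of samples, with 741, 851 and 616 CPM after PRATA and 1332, 595 and 3418 CPM after the sham operation. The log2 fold change of -1.28 ± 0.553 had an edgeR adjusted p of 0.271, and it was -0.38 ± 0.380 without sham replicate 3.

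The J-domain proteins hand clients to BiP and drive its ATPase. Dnajb11 (ERdj3) was at 32.8, 37.0 and 32.0 CPM after PRATA and at 60.7, 48.4 and 162 CPM in sham replicates 1, 2 and 3. All PRATA samples were below all sham samples, and sham replicate 3 was far above the other 2. The log2 fold change was -1.41 ± 0.424 (edgeR, unadjusted p = 0.0101, adjusted p = 0.178), and -0.68 ± 0.200 without sham replicate 3 (unadjusted p = 0.0122). Dnajc3 (p58IPK), which also restrains PERK, stood at 42.2, 51.1 and 44.4 CPM after PRATA and at 86.8, 48.2 and 228 CPM after the sham operation. Sham replicate 2 lay inside the PRATA range, and the log2 fold change of -1.40 ± 0.494 (edgeR adjusted p = 0.216) was -0.55 ± 0.280 without sham replicate 3. Dnajb9 (ERdj4), which returns BiP to IRE1, had 65.6, 73.9 and 84.6 CPM after PRATA and 123, 83.0 and 220.5 CPM in the sham samples, with a log2 fold change of -0.93 ± 0.333 (edgeR, unadjusted p = 0.0232, adjusted p = 0.22). Again sham replicate 2 lay within the PRATA range. Dnajc10 (ERdj5), a reductase that opens disulfide bonds before degradation, was the one folding gene with a fold change above 0, of 0.025 ± 0.194, and its sign changed with the processing. Hspa13, an HSP70 relative of microsomes, and Hyou1, the nucleotide exchange factor of BiP, had log2 fold changes of -0.51 ± 0.233 and -1.05 ± 0.459 at unadjusted p of 0.0586 and 0.0502.

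Creld2 and Manf code for small secreted ER proteins that are known as strongly stress-induced genes. Creld2 gave the widest difference of the set, with 11.9, 10.7 and 14.3 CPM after PRATA and 29.7, 15.6 and 157 CPM in sham replicates 1, 2 and 3. The groups did not overlap, although sham replicate 2 was only just above PRATA replicate 3, and sham replicate 3 stood more than 3 log2 units above the PRATA mean. The log2 fold change was -2.46 ± 0.764 (edgeR, unadjusted p = 0.0121, adjusted p = 0.186), and -0.89 ± 0.318 without sham replicate 3 (unadjusted p = 0.0282). Manf stood at 61.8, 70.5 and 55.5 CPM after PRATA and at 119, 59.2 and 234 CPM in the sham samples. Sham replicate 2 lay between PRATA replicates 1 and 3, and the log2 fold change of -1.13 ± 0.429 (edgeR adjusted p = 0.23) was -0.51 ± 0.313 without sham replicate 3. Sdf2l1, a partner of the J-domain proteins that keeps clients soluble, had 6.97, 8.37 and 8.14 CPM after PRATA against 9.33, 5.15 and 22.7 CPM, a log2 fold change of -0.67 ± 0.478 that turned to 0.10 ± 0.333 without sham replicate 3.

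**Figure D3:**
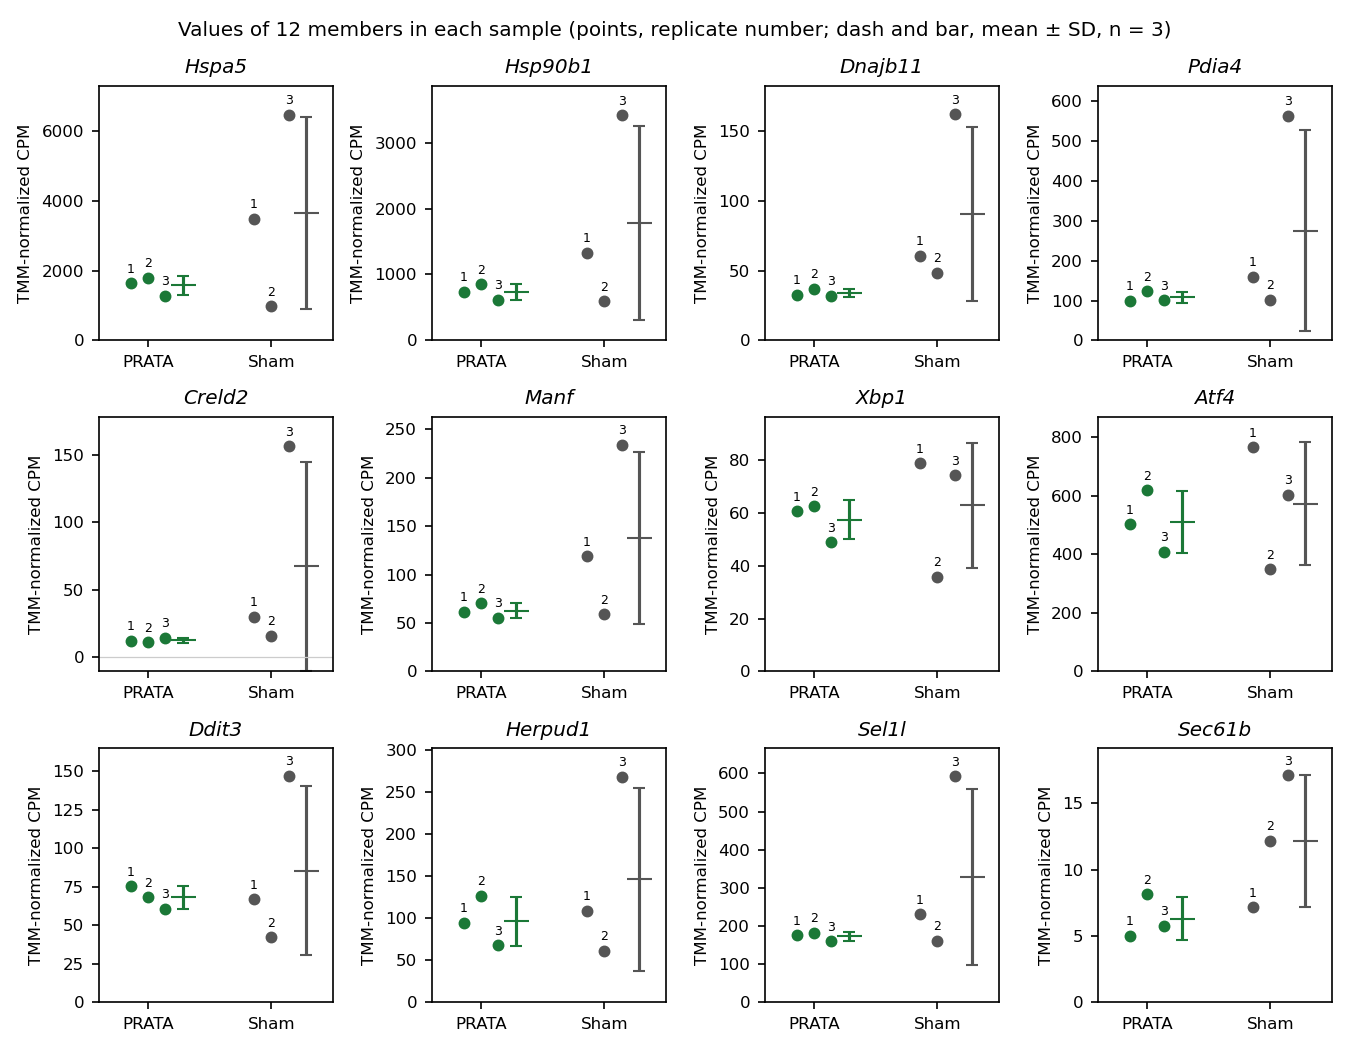
TMM-normalized CPM of 12 genes in each sample, with replicate numbers at the points and the mean ± SD of each group (n = 3) beside them; axes start at 0 except for Creld2, whose SD bar reaches below 0. The PRATA samples lie close together in the chaperone panels. Sham replicate 3 stands apart from sham replicates 1 and 2 for Hspa5, Hsp90b1, Dnajb11, Pdia4, Creld2, Manf, Ddit3, Herpud1 and Sel1l. It does not for Xbp1 and Atf4.

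Disulfide isomerases make and exchange the bonds of secreted proteins. Pdia4 (ERp72) was at 99.7, 124 and 101 CPM after PRATA and at 160.2, 102 and 564 CPM in the sham samples, so that sham replicate 2 lay inside the PRATA range. This was a log2 fold change of -1.35 ± 0.565 (edgeR, unadjusted p = 0.0431, adjusted p = 0.259), and -0.28 ± 0.252 without sham replicate 3. Pdia3 (ERp57), which works with calreticulin and calnexin on glycoproteins, was even after PRATA at 326, 317 and 319 CPM and higher in each sham sample at 420.2, 369.9 and 755 CPM. This gave a log2 fold change of -0.68 ± 0.286 with an edgeR adjusted p of 0.26, and the groups did not overlap. P4hb, the classical isomerase PDI and a subunit of collagen prolyl hydroxylase, had 144, 165 and 176 CPM after PRATA and 276, 171 and 313 CPM in the sham samples, and the log2 fold change was -0.65 ± 0.247 (edgeR adjusted p = 0.231). Sham replicate 2 of P4hb lay between PRATA replicates 2 and 3. The lectin chaperone Calr stood at 697, 886 and 659.6 CPM against 970.3, 548 and 1523 CPM, with the lowest level in sham replicate 2 and a log2 fold change of -0.44 ± 0.359 (edgeR unadjusted p = 0.255). Canx, the membrane-bound lectin, and Ero1b, the oxidase that recharges the isomerases, had non-overlapping groups with small log2 fold changes of -0.44 ± 0.217 and -0.41 ± 0.203, both at an edgeR adjusted p of 0.32. Pdia6, an isomerase that also damps IRE1, had a log2 fold change of -0.76 ± 0.343 at an edgeR unadjusted p of 0.0567.

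The 3 sensing genes had log2 fold changes below 0, with a median of -0.46, but none reached an unadjusted p under 0.05. Xbp1 stood at 60.5, 62.5 and 48.9 CPM after PRATA and at 78.8, 35.7 and 74.2 CPM in sham replicates 1, 2 and 3. Its lowest sample and its highest were both sham samples, and the log2 fold change was -0.14 ± 0.292 (edgeR adjusted p = 0.836). Ern1, which codes for IRE1, had 33.2, 42.7 and 57.6 CPM against 108, 37.8 and 88.2 CPM, a log2 fold change of -0.81 ± 0.376 at an unadjusted p of 0.0621. Its highest level was in sham replicate 1. Atf6 had 162, 187 and 145 CPM against 260.1, 119 and 303 CPM and a log2 fold change of -0.46 ± 0.326 with an edgeR adjusted p of 0.472, with the lowest level in sham replicate 2.

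The ATF4 and CHOP branch had a median log2 fold change of -0.17 over 7 genes against -0.85 over the 18 chaperones and folding enzymes; no test was made between the classes. Atf4, the transcription factor whose translation is raised when eIF2 is phosphorylated, was at 504, 619 and 409.5 CPM after PRATA and at 766, 349 and 604 CPM in the sham samples. Its highest sample was sham replicate 1 and its lowest sham replicate 2, so the sham samples spanned the PRATA samples, and the log2 fold change was -0.17 ± 0.313 (edgeR adjusted p = 0.814). Ddit3 (CHOP), the factor tied to cell death under lasting stress, had 75.5, 68.1 and 60.9 CPM against 67.1, 42.1 and 147 CPM, with only sham replicate 3 above the PRATA samples. Its log2 fold change of -0.33 ± 0.402 turned to 0.32 ± 0.255 without sham replicate 3. Trib3, a pseudokinase induced by ATF4 and CHOP, ranged most widely among samples within the branch, with 6.97, 16.3 and 10.8 CPM after PRATA and 16.7, 4.53 and 31.8 CPM after the sham operation. The log2 fold change of -0.64 ± 0.598 had an SE close to its own size (edgeR adjusted p = 0.597).

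Asns, the asparagine synthetase, was at 85.1, 71.0 and 80.2 CPM after PRATA and at 86.4, 81.9 and 137 CPM in the sham samples, where sham replicate 3 alone stood clear of the rest. Asns had a log2 fold change of -0.37 ± 0.226 with an edgeR adjusted p of 0.412. Chac1, which degrades glutathione, had 49.8, 45.2 and 20.9 CPM against 32.4, 19.4 and 47.1 CPM and was the gene with the highest fold change of the set, 0.22 ± 0.395 on the log2 scale (edgeR adjusted p = 0.801). Ppp1r15a (GADD34), which returns eIF2 to its active form, had 436, 523 and 309.8 CPM against 589, 243 and 437 CPM, and the group means were almost equal at 423 ± 107 and 423 ± 173 CPM (SD, n = 3). Sesn2, a sestrin that restrains mTORC1 when leucine is short, had a log2 fold change of -0.053 ± 0.499. In 6 of the 7 genes of this branch, all but Asns, sham replicate 2 was the lowest of the 6 samples.

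Of the genes of degradation and translocation, Herpud1, a scaffold of the ubiquitin ligase complex in the ER membrane, stood at 94.9, 127 and 68.2 CPM after PRATA and at 109, 61.5 and 269 CPM in the sham samples. Sham replicate 3 was the highest and sham replicate 2 the lowest, and the log2 fold change of -0.60 ± 0.493 turned to 0.18 ± 0.349 without sham replicate 3. Sel1l, the adaptor of the ligase HRD1, had 176, 182 and 161 CPM after PRATA and 231, 162 and 593 CPM in the sham samples, with a log2 fold change of -0.93 ± 0.437 (edgeR, unadjusted p = 0.0666, adjusted p = 0.303). Without sham replicate 3, Sel1l had a log2 fold change of -0.18 ± 0.229. Edem1, a lectin that takes misfolded glycoproteins out of the folding cycle, was at 38.2, 41.1 and 48.4 CPM after PRATA and at 68.5, 44.95 and 105 CPM in the sham samples, a log2 fold change of -0.77 ± 0.294 (edgeR, unadjusted p = 0.0298, adjusted p = 0.232). Sec61b, a subunit of the channel through which chains enter the ER, had low levels of 5.03, 8.13 and 5.77 CPM after PRATA and 7.19, 12.2 and 17.1 CPM in the sham samples. Here sham replicate 2 was above all PRATA samples and sham replicate 1 was not, and the log2 fold change was -0.93 ± 0.357 (edgeR, unadjusted p = 0.0304, adjusted p = 0.233).

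Syvn1, which codes for HRD1 itself, Derl1, a channel-like partner, and Selenos, a selenoprotein of the same complex, had log2 fold changes of -0.18 ± 0.220, -0.39 ± 0.250 and -0.38 ± 0.282, all at an edgeR adjusted p above 0.43. Derl3, a derlin known from secretory cells, was not tested because its counts were too low for the filter. It was at 0.387, 0.319 and 0.791 CPM after PRATA and at 0.829, 0.156 and 5.86 CPM in sham replicates 1, 2 and 3. Sham replicate 2 held 1 read of Derl3, under the floor of 3 counts, and sham replicate 3 held 62. Markers of B and plasma cells, in which Derl3 is known to be high, summed to 1.03 to 7.83 CPM after PRATA and to 3.39, 3.90 and 0.945 CPM in sham replicates 1, 2 and 3, and none of these 8 markers passed the filter.

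Seen by class and sample, the median log2 difference of the chaperones and folding enzymes from the PRATA mean was 0.69 in sham replicate 1, 0.041 in sham replicate 2 and 1.55 in sham replicate 3. For degradation and translocation these medians were 0.22, -0.050 and 1.304. The ATF4 and CHOP branch instead had 0.51 in sham replicate 1, -0.77 in sham replicate 2 and 0.50 in sham replicate 3, and the sensing genes had 0.66, -0.46 and 0.88. The excess of sham replicate 3 over sham replicate 1 was thus seen in the medians of chaperones and degradation genes and not in that of the ATF4 and CHOP branch. Within that branch, Ddit3, Trib3, Asns and Chac1 were higher in sham replicate 3 than in sham replicate 1, and Atf4, Ppp1r15a and Sesn2 were lower. The difference between the class medians was not tested. Over all genes tested, the medians lay between -0.064 and 0.028 in every sample.

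**Figure D4:**
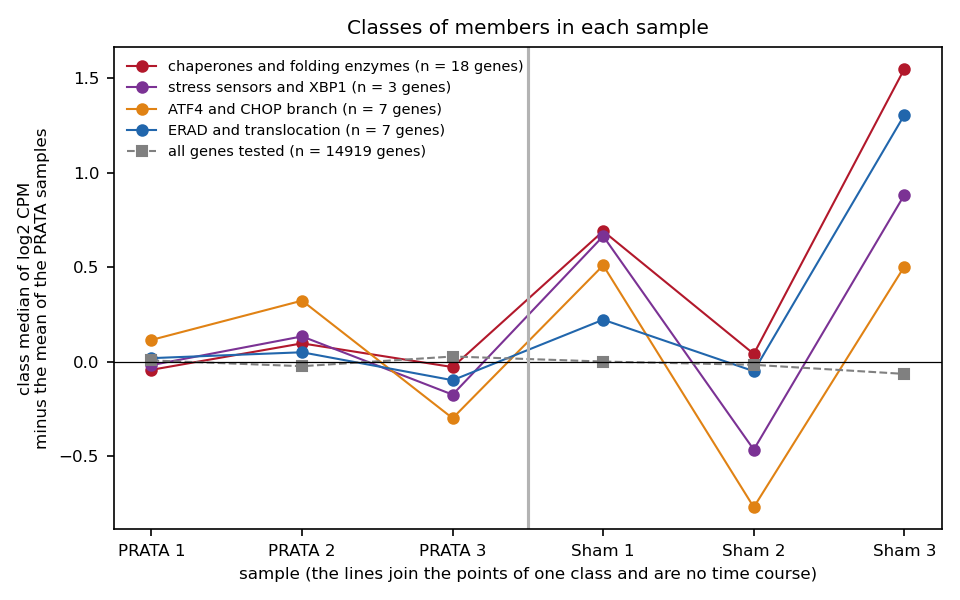
Median over the tested genes of each class of log2 CPM (prior count 1) minus the mean of the PRATA samples, by sample, with all 14919 genes tested in grey. Sham replicate 3 reaches 1.55 for chaperones and 1.304 for degradation genes, sham replicate 2 reaches -0.77 for the ATF4 and CHOP branch, and the grey points stay near 0.

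The counts turned on single samples. Without sham replicate 3, 2 of 35 genes (Dnajb11 and Creld2) were lower at an unadjusted p under 0.05 by edgeR, against 5.57% of all genes, 0 were higher, against 3.76%, and 24 of 35 fold changes were below 0, against 49.9%. The median log2 fold change was then -0.34 for the chaperones and folding enzymes, -0.18 for degradation and translocation, and 0.087 for the ATF4 and CHOP branch. Without sham replicate 2, 24 of 35 were lower at that p, against 14.1% of all genes, and Hspa5, Dnajc3, P4hb, Creld2 and Manf were under an edgeR adjusted p of 0.05, as 3.62% of all genes were in that direction. Without PRATA replicate 1, 2 of 35 genes were lower at that p, against 5.44% of all genes. Without PRATA replicate 2 or PRATA replicate 3, 5 each were lower, against 7.86% and 7.5%, and without sham replicate 1, 13 were, against 8.91%. With the split by 7SL RNA copy as a term 12 genes were lower (9.56% of all genes), and in the 4 samples of its larger group alone 7 were (6.9%).

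**Figure D5:**
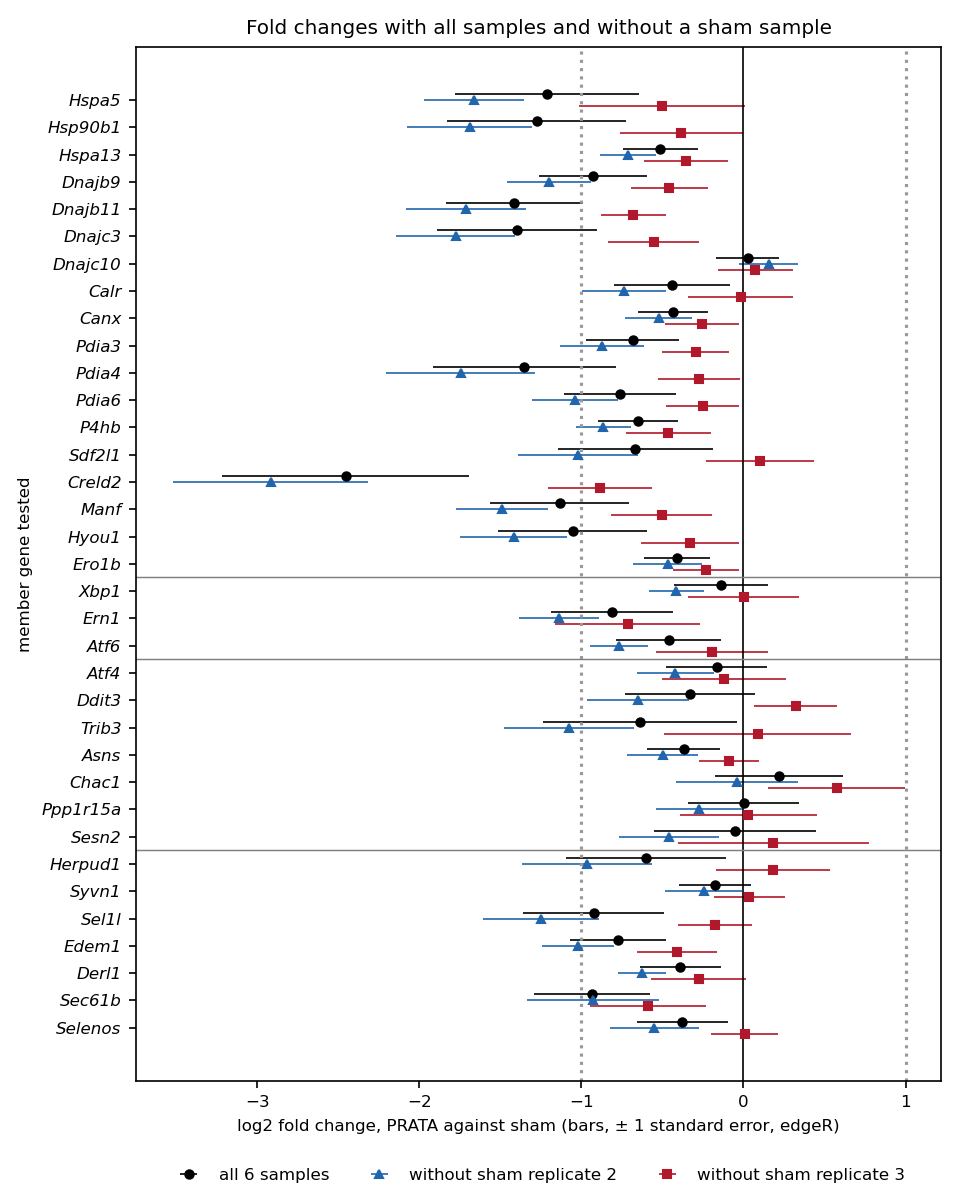
Log2 fold change (PRATA against sham) of the 35 tested genes with bars of 1 standard error derived from the edgeR test. Shown are fits with all 6 samples (black circles), without sham replicate 2 (blue triangles) and without sham replicate 3 (red squares). Dotted lines mark -1 and 1. For the chaperones other than Dnajc10, the red squares lie to the right of the black circles and the blue triangles to the left.

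Other genes of the pathway were taken from lists written from general knowledge, without the genes above, but with earlier results of these data known. Of 29 tested genes of ER translocation and N-glycosylation, 25 had a log2 fold change below 0 with a median of -0.41, and 10 were lower and 0 higher at an unadjusted p under 0.05 by edgeR, beside 10.1% and 8.19% of all genes. In 14 of these 29 the groups did not overlap, with PRATA below sham, and in 0 with PRATA above, against 11.2% and 11.6% of all genes. Stt3b, a catalytic subunit of the oligosaccharyltransferase, was at 110.2, 102 and 112 CPM after PRATA and at 181, 137 and 203 CPM in sham replicates 1, 2 and 3, so that sham replicate 2 too was above all PRATA samples. Stt3b had a log2 fold change of -0.68 ± 0.188 (edgeR, unadjusted p = 0.00655, adjusted p = 0.169). Tram1, which guides chains at the translocon, and Spcs3, a subunit of the signal peptidase, had log2 fold changes of -1.01 ± 0.286 and -1.01 ± 0.288 at an edgeR adjusted p of 0.17, with groups that did not overlap. Without sham replicate 3, 26 of 29 fold changes of this list were below 0 with a median of -0.24, and 4 were lower and 0 higher at an unadjusted p under 0.05, beside 5.57% and 3.76% of all genes.

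Of 38 further folding genes, 26 had a fold change below 0 with a median of -0.12, and 10 were lower and 2 higher at an unadjusted p under 0.05 by edgeR, beside 10.1% and 8.19% of all genes. The prolyl isomerases Ppic and Fkbp10 and the calcium-binding protein Calu had the smallest p, with log2 fold changes of -1.25 ± 0.300, -0.89 ± 0.269 and -1.15 ± 0.347 at an edgeR adjusted p of 0.156 for Ppic and 0.18 for the other two, and none of the 3 had overlapping groups. Calu stood at 140.4, 169.9 and 157 CPM after PRATA and at 359, 176 and 499 CPM in the sham samples. In 7 of the 38 genes PRATA was below sham without overlap and in 1 above, against 11.2% and 11.6% of all genes. Without sham replicate 3, 24 of the 38 fold changes were below 0 with a median of -0.080, against 49.9% of all genes below 0. In that fit 3 genes of this list were lower and 1 was higher at an unadjusted p under 0.05 by edgeR, beside 5.57% and 3.76% of all genes. Of 37 further ERAD genes, 24 were below 0 with a median of -0.12. At an unadjusted p under 0.05 by edgeR, 3 were lower and 1 was higher, neither above the share of all genes. The groups did not overlap in 3 of the 37 with PRATA below sham and in 2 with PRATA above, against 11.2% and 11.6%. The shuttle factor Ubqln2 (-0.49 ± 0.182) and the conjugating enzyme Ube2g2 (-0.44 ± 0.168) were lower and Tmub1 (0.56 ± 0.204), a ubiquitin-like membrane protein, was higher, all with groups that did not overlap and at an edgeR adjusted p of 0.224 to 0.233.

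Of 20 further genes of stress sensing, 12 were below 0 with a median of -0.11, 2 were lower and 2 higher at an unadjusted p under 0.05 by edgeR, near the 10.1% and 8.19% of all genes. Eif2s1, the alpha subunit of eIF2 on which PERK acts, was at 46.2, 39.7 and 39.8 CPM after PRATA and at 71.2, 70.4 and 91.8 CPM in the sham samples, with no overlap and sham replicates 1 and 2 close together. Its log2 fold change was -0.89 ± 0.177 (edgeR, unadjusted p = 0.000955, adjusted p = 0.156). Map3k5 (ASK1), a kinase downstream of IRE1, was higher after PRATA in each sample, with 34.3, 30.7 and 39.0 CPM against 20.9, 24.0 and 19.6 CPM and a log2 fold change of 0.69 ± 0.176 with an edgeR adjusted p of 0.167. Eif2ak2 (PKR), an eIF2 kinase that senses double-stranded RNA, had a log2 fold change of 0.75 ± 0.314 with overlapping groups (edgeR adjusted p = 0.258). PRATA was below sham without overlap in 1 of these 20 genes and above in 2, against 11.2% and 11.6% of all genes.

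Of 38 further targets of ATF4 and CHOP, 32 had a fold change below 0 with a median of -0.46, a value further from 0 than the -0.17 of the branch described above, and 11 were lower and 3 higher at an unadjusted p under 0.05 by edgeR, beside 10.1% and 8.19% of all genes. Psat1, of serine synthesis, was at 14.6, 17.3 and 15.02 CPM after PRATA and at 43.0, 17.8 and 44.4 CPM in the sham samples, a log2 fold change of -1.17 ± 0.330 (edgeR, unadjusted p = 0.00733, adjusted p = 0.171). Slc7a11, the cystine transporter, had 26.3, 47.3 and 49.8 CPM against 76.4, 70.5 and 193 CPM and a log2 fold change of -1.46 ± 0.424 with an edgeR adjusted p of 0.175. The groups of both genes did not overlap, although sham replicate 2 was only just above the PRATA samples for Psat1. Atf3, a stress- and injury-induced transcription factor, went the other way with 278, 327 and 108 CPM after PRATA and 125, 82.7 and 56.5 CPM in the sham samples, a log2 fold change of 1.43 ± 0.436 with an edgeR adjusted p of 0.182 and overlapping groups. Sham replicate 3 was the highest of the 6 samples in 24 of these 38 genes, against 17.9% of all genes. The groups did not overlap in 8 of the 38 with PRATA below sham and in 1 with PRATA above, against 11.2% and 11.6%. Without sham replicate 3, 28 of the 38 fold changes were below 0 with a median of -0.27, against 49.9% of all genes below 0. In that fit 2 of this list were lower and 2 higher at an unadjusted p under 0.05 by edgeR, beside 5.57% and 3.76% of all genes. Without sham replicate 2, 24 were lower and 2 higher, beside 14.1% and 13.4%.

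Among the 28 tested genes with a single promoter window, the 8 that held ERSE had a median log2 fold change of -0.83 and the 20 that did not had -0.56, a description without a test. Of the 8, 7 were chaperones or folding enzymes, and the 20 included all 7 genes of the ATF4 and CHOP branch and the 2 with ERSE-II. Class and motif cannot be told apart in these medians. The range within the 8 was wide, from -2.46 for Creld2 to -0.14 for Xbp1. The folding genes whose single window held no ERSE or ERSE-II were Sdf2l1, Pdia4, P4hb, Dnajb9 and Hspa13, with log2 fold changes from -1.35 to -0.51, and Dnajc10, with 0.025. The 3 genes with an AARE core, Trib3, Chac1 and Herpud1, had log2 fold changes of -0.64, 0.22 and -0.60.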

How the data were processed

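RNA of DRG neurons was measured in 6 samples, 3 after PRATA and 3 after a sham operation, grouped by the sample labels. The deposited values are whole-number counts of reads for each gene, which the authors did not normalize. The methods of the study name HISAT2, StringTie and Cuffdiff, and the submitters' processing notes name STAR 2.7.3a, RSEM and DESeq2. Which of these made the counts, the genome build, the annotation, the strand setting and what was done with multi-mapping reads are not given in the sources used here, so reads shared with near-identical copies may have been split.

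The fits used edgeR 4.0.16 in R 4.3.3, beside DESeq2 1.42.0 and limma 3.58.1. The filter was filterByExpr (minimum count 10, minimum total 15), and 14919 of 25689 genes passed it. After TMM scaling, the groups were tested by the two-sided quasi-likelihood test with no covariate, and p-values were adjusted by Benjamini-Hochberg over those 14919 genes. The SE of an edgeR log2 fold change was derived as its absolute value over the square root of the test's F statistic. CPM values use the same TMM factors, and medians by sample use log2 CPM with a prior count of 1. With 3 samples against 3 an exact permutation test cannot give a p under 0.10, so none is reported.

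The 36 genes, their classes and the lists of other pathway genes and cell markers were chosen with earlier results of these data known, so no test was made over a list. Of 299 listed genes, 290 matched the table, 4 of them through RefSeq names. Named with values in every sample were the genes of the set at an unadjusted p under 0.05 and a fixed choice of central genes. From each further list the 3 genes with the smallest p were named, some with sample values. Chac1, Ppp1r15a and the targets of ATF4 and CHOP other than Psat1, Slc7a11 and Atf3 were named after their values were seen. Promoter windows came from RefSeq (GRCr8) by gene symbol. Fits were tested on simulated data. Alternatives were other size factors, other filters, DESeq2, limma-trend, voom with sample quality weights, a robust fit, a replicate block, protein-coding genes alone, the 7SL RNA copy, and each sample left out. Plots were made with matplotlib 3.10.9 under Python 3.11.15.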

Additional observations from a re-analysis of the deposited data

How the results depend on the processing

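Of the 35 tested genes, 11 were lower after PRATA at an unadjusted p under 0.05, and this count was 17 of 36 without a filter on low counts, 7 with limma-trend, 22 with voom and sample quality weights, and 7 in the 4 samples of the larger 7SL RNA group. The shares of all genes lower at that p were 10.1% at first and 8.19%, 9.02%, 15.3% and 6.9% in these alternatives. The count ranged from 2 to 24 when single samples were left out, with 5.44% to 14.1% of all genes. The count past both thresholds was 6, against 3 with limma-trend, 12 with voom and 0 to 15 with a sample left out, and 3.23%, 2.48%, 4.44% and 2.43% to 4.36% of all genes were past both. At an adjusted p under 0.05, the count of 0 became 2 with DESeq2, 3 with voom (Dnajb9, Dnajb11 and P4hb) and 0 to 5 with a sample left out, beside 2.69%, 4.87% and up to 3.62% of all genes lower at that adjusted p. No gene of the set was higher at an unadjusted p under 0.05 in any of the 18 alternatives. The median of the ATF4 and CHOP branch turned to 0.22 in the 4 samples of the larger 7SL RNA group and ranged from -0.46 to 0.087 with a sample left out, while the medians of the other classes stayed below 0 in all 18 alternatives. The cause of these shifts was not tested.

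The labels give both groups the same replicate numbers, and the deviations of same-numbered samples correlated at -0.35, -0.037 and -0.35. No source used here says whether the numbers pair the samples. With 3 samples per group these correlations cannot decide it. A replicate block in the fit left 5 genes lower at an unadjusted p under 0.05 (Dnajb9, Dnajb11, Creld2, Edem1 and Sec61b), against 6.08% of all genes, 2 past both thresholds, against 2.49%, and Sesn2 had a log2 fold change of 0.066.

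The signs of some single genes turned. In the 4 samples of the larger 7SL RNA group the log2 fold changes were -0.16 for Dnajc10, 0.14 for Xbp1, 0.22 for Atf4 and 0.48 for Sesn2. Dnajc10 was -0.024 with library size alone and -0.00026 with protein-coding genes alone, and Sesn2 was 0.13 with limma-trend. Ppp1r15a was -0.018 with DESeq2's size factors, -0.0010 with library size alone, -0.015 without a filter, -0.0075 with at least 10 counts in every sample, -0.014 with DESeq2, -0.013 with voom and -0.028 with protein-coding genes alone. With a sample left out, the ranges were -0.15 to 0.16 for Dnajc10, -1.02 to 0.10 for Sdf2l1, -0.41 to 0.032 for Xbp1, -0.42 to 0.081 for Atf4, -0.65 to 0.32 for Ddit3, -1.08 to 0.087 for Trib3, -0.042 to 0.57 for Chac1, -0.28 to 0.30 for Ppp1r15a, -0.46 to 0.22 for Sesn2, -0.97 to 0.18 for Herpud1, -0.31 to 0.036 for Syvn1 and -0.55 to 0.0073 for Selenos. Sham replicate 2, with the fewest counts, limits genes of low level such as Derl3 most.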

Other observations

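Among the further targets of ATF4 and CHOP, 11 tested genes code for aminoacyl-tRNA synthetases, a group formed after the values were seen and given without a test. All 11 had a log2 fold change below 0 (48% of all genes did), from -0.92 to -0.093 with a median of -0.36, and 3 of them (Eprs1, Tars1 and Mars1) were lower and 0 higher at an unadjusted p under 0.05 by edgeR, beside 10.1% and 8.19% of all genes. Other genes of the list at that p are named here, also after their values were seen. Pycr1, of proline synthesis, was at 0.774, 0.717 and 1.11 CPM after PRATA and at 1.59, 1.72 and 4.82 CPM in sham replicates 1, 2 and 3. Shmt2, of mitochondrial one-carbon metabolism, was at 37.4, 37.2 and 42.9 CPM and 55.3, 47.1 and 94.9 CPM, and the groups of both genes did not overlap. The amino acid transporter subunit Slc3a2 and the synthetase genes Eprs1, Tars1 and Mars1 had log2 fold changes of -0.80 ± 0.305, -0.92 ± 0.342, -0.74 ± 0.262 and -0.53 ± 0.207. The glycine transporter gene Slc6a9, the secreted glycoprotein gene Stc2 and Eif4ebp1, which restrains cap-dependent translation, had -1.28 ± 0.492, -1.91 ± 0.662 and -0.95 ± 0.303 on the same scale. Ddit4 (REDD1), which restrains mTORC1, and Gpt2, an alanine transaminase, had log2 fold changes above 0, of 0.55 ± 0.208 and 0.51 ± 0.208. All of these had edgeR adjusted p-values between 0.19 and 0.26.

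Of the 22 promoter windows with ERSE, 13 belonged to genes outside the set, and 7 different tested genes were among them. Their log2 fold changes were -1.03 ± 0.563 (SE) for Calr4, a calreticulin relative, -0.91 ± 0.281 for Hnrnpa3, an RNA-binding protein, -0.59 ± 0.374 for Zfand2a, -0.35 ± 0.151 for Ppm1l, -0.23 ± 0.339 for Zfp57, 0.10 ± 0.245 for Ankmy2 and 0.35 ± 0.258 for Pan2. Hnrnpa3 was the one of these at an unadjusted p under 0.05 by edgeR (0.0115, adjusted p = 0.183).

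The cell marker lists other than neuron and satellite glia moved as follows. Of 11 Schwann cell markers, 9 were above 0 (2 at an unadjusted p under 0.05) and 2 below (1 at that p), with sums of 867 to 1506 CPM after PRATA and 675 to 873 CPM in the sham samples. Of 9 fibroblast markers 7 were below 0, of 10 macrophage markers 8 were above 0, of 7 endothelial markers 6 were above 0 (1 at that p), of 8 mural markers 5 were above 0, and of 4 tested fat cell markers 2 were above 0. The 1 tested T cell marker was above 0. The sums of these lists overlapped between the groups. Of all genes tested, 48% were below 0. At an unadjusted p under 0.05 by edgeR, 8.19% of them were higher and 10.1% lower.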
